A study of Sus scrofa with 12 samples.

Results

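The members described here were m6A peaks at the 5′ end of boar sperm mRNAs, that is, peaks in the 5′UTR or at the start codon, called start peaks below. A peak was a member when its midpoint, on the longest coding RefSeq transcript of the same-strand gene it overlapped most, lay in the 5′UTR or within 100 nt of the first base of the coding sequence (CDS), and nearer to that base than to the last CDS base. By this rule 7112 of the 61902 deposited peaks of 6 samples were members, out of 48788 peaks that could be placed on a coding transcript. Of the 7112 start peaks, 4146 lay within 100 nt of the first CDS base and 2966 lay farther upstream in the 5′UTR.

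The peaks came from methylated RNA immunoprecipitation sequencing (MeRIP-seq), in which RNA fragments of about 100 nt are pulled down with an antibody against m6A (IP) and compared with the RNA before pull-down (input). Fresh sperm (Fs) were put into liquid nitrogen at once, and frozen-thawed sperm (Fts) had been cooled to 17 °C, spun down, cooled to 4 °C in an egg-yolk extender, mixed with the same extender holding 6% glycerol, frozen and thawed. Before RNA extraction the sperm were treated with the detergent Triton X-100 to remove somatic cells. Semen came from 3 Duroc boars with 5 ejaculates per boar, and each group had 3 IP peak lists. Because Fs and Fts were taken from the same 3 boars, the 6 samples were not fully independent, and the labels did not say that an equal number stands for the same boar.

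N6-methyladenosine is best known around stop codons and in long internal exons, where the METTL3 and METTL14 methyltransferase writes it within the short sequence RRACH (R is A or G, H is A, C or T). In the 5′UTR it has been linked to translation that starts without the cap-binding complex, through the initiation factor eIF3, and to mRNAs made under heat shock. Antibodies against m6A also bind m6Am, a related mark on the first transcribed base beside the cap, so a peak at the very start of a transcript can hold either. Mature sperm are thought to carry RNA left from spermatogenesis and to make little of it themselves.

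The start codon sequences of the regions with the clearest patterns are shown first, because they are the positions to which all distances refer. Each is the spliced transcript of the Sscrofa11.1 assembly (RefSeq annotation), 30 bases 5′ to 3′, with the start codon in capitals. The first set lay in regions with a peak in all 3 Fts samples and none in Fs, called Fts regions below.
HMGN1, chr13:202942862-202943208, minus strand, across an exon junction: cgccctcgccacgATGcccaagaggaaggt
AQN-1, chr14:132259080-132259109, plus strand: ccaggctgctgagATGaagctgggcagcgc
SPMI, chr14:132321547-132321576, minus strand: ccaggctgctgagATGaagctgggcagcgc
RPS6, chr1:203445089-203445118, plus strand: ttatgagaaacgcATGgccacagaagttgc
CYB5A, chr1:149737747-149737776, plus strand: gccgcgttacgaaATGgccgaacagtccga
EIF4A3, chr12:2285682-2285711, plus strand: cccgctcggcatcATGgcggccacggccac
The second set lay in regions with a peak in all 3 Fs samples and none in Fts, called Fs regions.
HDAC1, chr6:88749707-88749736, plus strand: ggaggcgagcaagATGgcgcagactcaggg
SSBP2, chr2:90263011-90263040, minus strand: tctcggcacaagcATGtacggcaaaggcaa
CCDC83, chr9:19775600-19775629, plus strand: gctaagcaacacaATGgaaaacacagcaaa
AUNIP, chr6:83316284-83316313, minus strand: ctcttcaccggccATGaggcggagaggccc
The third set lay in regions with a peak in all 6 samples.
SAE1, chr6:52957563-52957592, plus strand: gagagctggcgccATGgtggagaaggagga
USP32, chr12:37729271-37729300, plus strand: ggatgaggggagcATGggcgccaaggagtc

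The windows of AQN-1 and SPMI, a pair of spermadhesin genes on opposite strands of chromosome 14, were identical in 30 of 30 bases. Reads from their 5′ ends may therefore be shared between the loci, and their peaks are uncertain as to which gene they belong to. RPS6 has 3 coding transcripts with 2 different first CDS bases, and the codon shown is that of 2 of the 3. It begins a CDS of 657 nt on the longest transcript, and the other first CDS base lies in the same region. Which RPS6 peaks count as 5′UTR or CDS therefore depends on the transcript chosen, and the codon shown may not be the one used. The USP32 codon is that of 1 of 2 coding transcripts. Across all longest coding transcripts, a purine 3 bases before the start codon together with a G right after it was found in 38.9% of the 18257 transcripts with a readable context. Among transcripts with a start peak the share was 40.3% of 2976.

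For some of the regions that held GGACT, a form of RRACH, the first such site is given here with 8 bases on each side and the 5 bases of the motif in capitals. These sites are shown because they lie in regions described below, on both sides of the start codon. A match describes the sequence and does not locate the modified base.
CYB5A, chr1:149737685-149737705, plus strand: gttcgccaGGACTcccactct
S1PR3, chr14:659324-659344, plus strand: ggacggcgGGACTggaaagct
SSTR3, chr5:10582390-10582410, plus strand: acacccagGGACTgggcaggg
SAE1, chr6:52957646-52957666, plus strand: gtctctggGGACTggaggccc
LYPLA2, chr6:81601509-81601529, plus strand: ggttcccgGGACTcgaacgga
USP32, chr12:37729178-37729198, plus strand: gggccgggGGACTccgacacc
Counted from the first CDS base, with negative distances in the 5′UTR, the central A stood at -65 nt in CYB5A, -415 nt in S1PR3, -110 nt in SSTR3 and -96 nt in USP32. It stood at 80 nt in SAE1 and at 17 nt in LYPLA2, inside the CDS. In all 16538 start windows of 100 nt (from 50 nt before to 49 nt after the first CDS base), GGACT occurred in 10.2% and RRACH in 67.9%, searched on the transcript strand only.

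The first comparison asked how many start peaks each group held. The 3 Fs samples had 1023, 1227 and 1198 start peaks, and the 3 Fts samples had 1001, 1293 and 1370. The lowest and the highest number were both in Fts, and the groups overlapped. Fs averaged 1149 ± 110 start peaks (SD, n = 3) and Fts 1221 ± 195, which is 72 peaks more. The difference was 119 without replicate 1, 22 without replicate 3 and 14.3 when peaks were joined across exon junctions. In Fs 1012, 1184 and 1164 genes carried a start peak, and in Fts 963, 1212 and 1294 did, so the groups overlapped there too. Placed peaks of all kinds numbered 6079 to 7910 in Fs and 7732 to 9742 in Fts. As a share of placed peaks, start peaks made up 16.8, 15.5 and 15.3% in Fs against 12.9, 13.6 and 14.1% in Fts. Every Fts sample was below every Fs sample, with a mean difference of -2.36 percentage points. A sign-flip test over the 3 pairs, exact and two-sided, gave p = 0.25, the smallest value that 3 pairs allow, and 0.3125 after Benjamini-Hochberg adjustment over the 10 Fs and Fts comparisons.

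**Figure D1:**
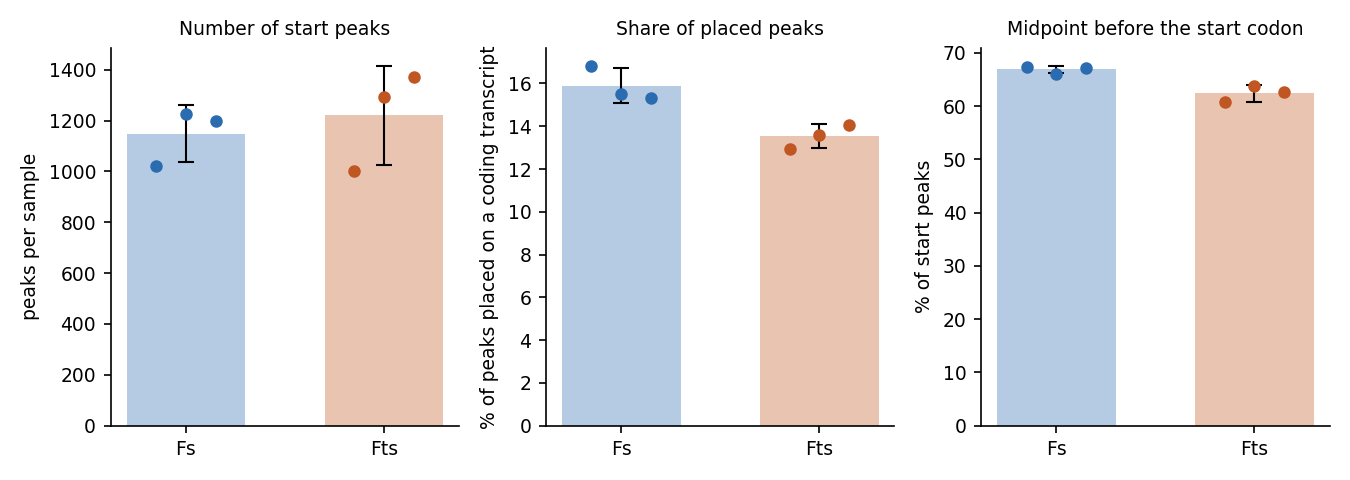
Number of start peaks, their share of all placed peaks in percent, and the percentage of start peaks whose midpoint lay before the start codon, in Fs and Fts. Points are the 3 samples of a group, bars the mean and error bars the SD. The numbers overlapped between the groups, whereas the shares did not (15.3 to 16.8% in Fs, 12.9 to 14.1% in Fts).

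Within the 5′ end the midpoints lay nearer to, or past, the start codon in Fts. Midpoints before the start codon made up 66.9% ± 0.68 (SD, n = 3) of start peaks in Fs and 62.4% ± 1.54 in Fts, without overlap (exact sign-flip p = 0.25, adjusted 0.3125). The median distance to the first CDS base was -68, -70 and -64 nt in Fs and -53, -49 and -49.5 nt in Fts. The start codon itself lay inside 45.9 to 48.8% of the Fs start peaks and 50.9 to 54.1% of the Fts start peaks. The first exon held 67.2 to 71.2% of start peaks in Fs and 59.9 to 63.4% in Fts. In each of these measures the groups did not overlap, although a test over 3 pairs cannot pass 0.05.

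The density of midpoints along the transcripts of peak-bearing genes was counted in peaks per 100 kb of transcript. From 100 to 1 nt before the start codon it was 60.4, 54.9 and 57.8 in Fs, while Fts had 45.9, 63.5 and 60.2, and the groups overlapped. From the first CDS base to 100 nt after it there were 69.9, 70.5 and 67.8 in Fs and 76.0, 81.3 and 83.8 in Fts, with every Fts sample higher. Past the members' limit the gap was wider, with means of 66.9 in Fs and 92.8 in Fts from 201 to 400 nt into the CDS. Farther upstream, from -400 to -201 nt, density was lower in both groups, at 31.1 ± 0.69 in Fs and 27.5 ± 3.41 in Fts. The lower share of start peaks in Fts thus went with a higher density of peaks in the CDS, while the densities before the start codon overlapped.

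**Figure D2:**
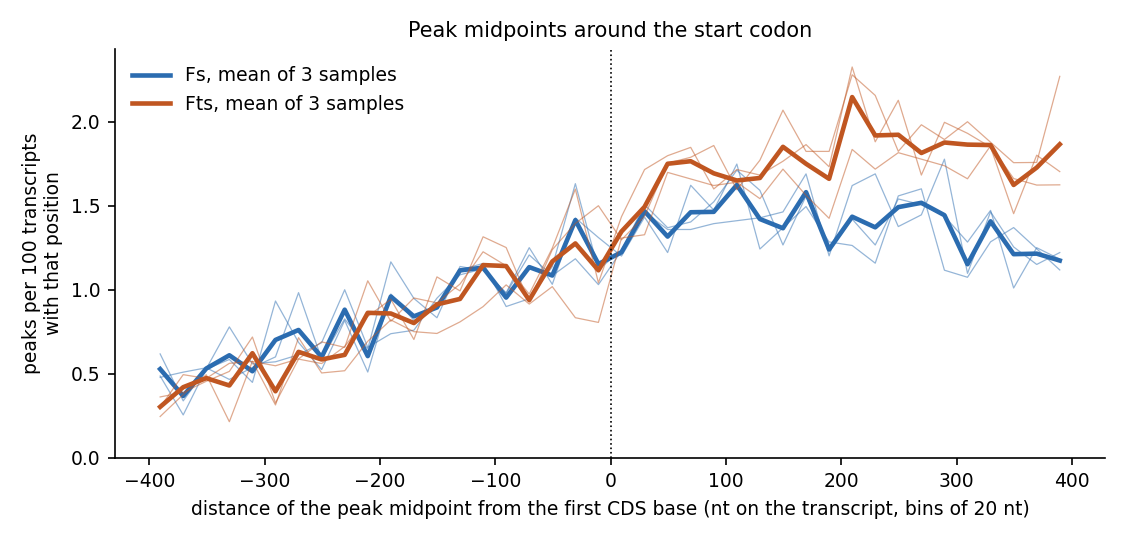
Peak midpoints per 100 transcripts that have the position, in bins of 20 nt within 400 nt of the first CDS base (dotted line). Thin lines are single samples and thick lines the mean of 3 samples, Fs in blue and Fts in orange. The groups ran together before the start codon and came apart in the CDS.

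Set against the length of the same transcripts, the 2 kinds of start peaks differed. The stretch within 100 nt of the first CDS base took up 3.82 to 3.90% of transcript length and held 8.66 to 9.52% of placed peaks in Fs and 7.70 to 8.48% in Fts. Its ratio of peaks to length was 2.24 to 2.48 in Fs and 2.02 to 2.17 in Fts. This is a ratio to the whole transcript and not to the rest of the CDS. In Fs the density averaged 69.4 peaks per 100 kb from the first CDS base to 100 nt after it. From 401 to 600 nt it averaged 70.0. The Fts means were 80.4 and 92.1. The ratio thus did not set the start codon apart from the CDS. The 5′UTR farther upstream took up 12.2 to 12.7% of length but held 5.25 to 7.30% of peaks, giving ratios of 0.544 to 0.575 in Fs and 0.424 to 0.458 in Fts. Both ratios were lower in each Fts sample than in each Fs sample. Taken as 1 class, start peaks had a mean log2 ratio of -0.15 to the length share over the 6 samples (exact sign-flip p = 0.0625, adjusted 0.0875 over 7 comparisons), and this value turned positive when weak peaks were left out, with 0.04 at a score of at least 20. The mean log2 ratio of the Fs samples was -0.04 ± 0.05 (SD, n = 3), and that of the Fts samples -0.26 ± 0.06. The score is the peak caller's, 10 times -log10 of the p-value against input.

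How start peaks differed from coding peaks of the same sample, those in the CDS more than 100 nt from both codons, was asked next. Median length was 171 bp for start peaks and 145 bp for coding peaks on average over the 6 samples, a difference of 26.2 bp. Start peaks were longer in 6 of 6 samples, by 30 to 35 bp in Fs and 17 to 23 bp in Fts. Most peaks of both kinds touched an exon end, 76.0 to 83.0% of start peaks and 89.9 to 92.7% of coding peaks per sample. The part of exon length in the length difference was not tested. Mean GC in the 100 nt around the midpoint was 59.2% against 51.6%, and higher in 6 of 6 samples by 6.95 to 7.85 points. RRACH was found in 67.9% of start windows and 76.9% of coding windows, and was lower in 6 of 6 samples by a mean of -8.99 points. GGACT went the other way, with 11.7% against 9.66%, higher in 6 of 6 samples. Each of these 4 differences gave an exact sign-flip p of 0.03125, the smallest that 6 samples allow, and an adjusted p of 0.0547, which misses 0.05.

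**Figure D3:**
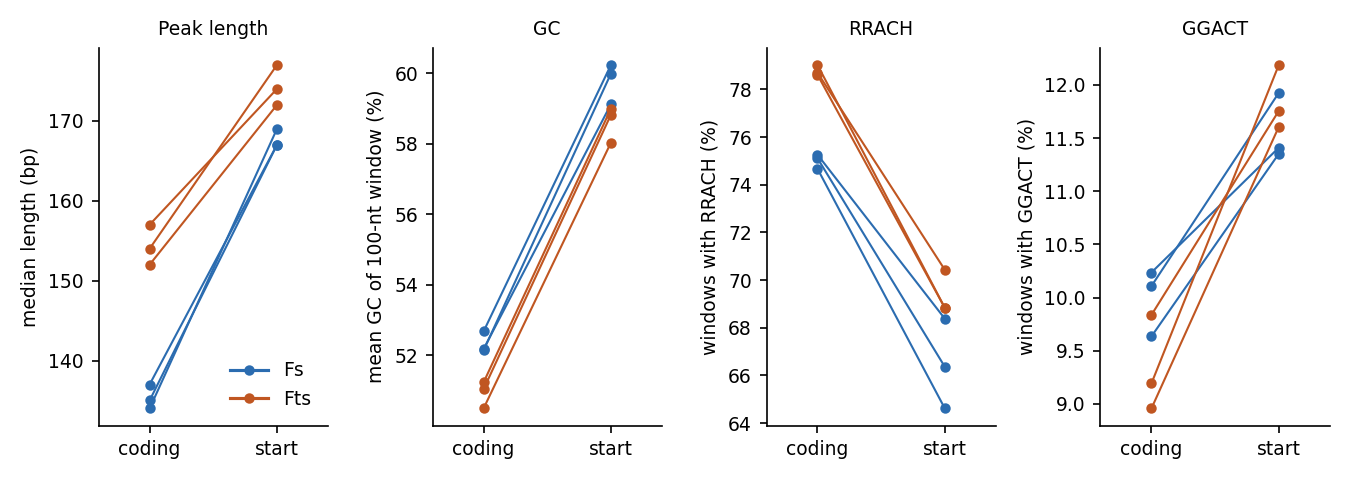
Median peak length in bp, mean GC in percent, and the percentages of 100-nt windows with RRACH and GGACT for coding peaks (left) and start peaks (right). Each line joins the values of 1 sample, Fs in blue and Fts in orange; axes do not start at 0. All 6 lines run up for length, GC and GGACT and down for RRACH.

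The base composition of start peaks was close to that of start codons in general. GC was 59.1% in the 16538 start windows of all coding transcripts and 57.6% in the 2833 start windows of transcripts with a start peak. In those windows RRACH was found in 72.0% and GGACT in 11.9%. Start peaks of Fs had a GC of 59.8% ± 0.59 (SD, n = 3) and those of Fts 58.6% ± 0.51, and RRACH was found in 66.5% ± 1.88 and 69.4% ± 0.92. Neither pair of groups overlapped (exact sign-flip p = 0.25 for both, adjusted 0.3125). The GC difference of -1.17 points was -0.65 without replicate 1, and the RRACH difference of 2.91 points was 1.46. The GGACT share was 11.6% ± 0.32 in Fs and 11.8% ± 0.30 in Fts and the groups overlapped. Coding peaks moved in the same direction in GC, with 52.3% ± 0.30 in Fs and 50.9% ± 0.38 in Fts. RRACH was found in 75.0% ± 0.31 of their windows in Fs and 78.8% ± 0.22 in Fts, and GGACT in 9.99% and 9.33%. The GC and RRACH differences were thus not particular to start peaks.

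Close to 50% of start peaks were weak by the caller's own score. Fs medians were 13.2, 13.7 and 13.1 and Fts medians 13.4, 15.7 and 14.5, and between 45.3 and 49.8% of start peaks scored under 13, which corresponds to a p of about 0.05. A score of at least 50 was reached by 22.0% ± 1.01 (SD, n = 3) of start peaks in Fs and 25.2% ± 2.64 in Fts, without overlap (exact sign-flip p = 0.25), and the difference of 3.25 points was 1.31 without replicate 2. Scores ran from 3.02 to 3100 or slightly above, and 2 to 9 start peaks per sample sat at exactly 3100, so that values there are at the top of the scale. The difference in median score between start and coding peaks was 1.19 over the 6 samples (exact sign-flip p = 0.0938, adjusted 0.109). In Fs it was 1.59, 2.65 and 2.52, and in Fts 0.24, -0.83 and 0.98, so that the pooled value lay between the groups, and their difference was not tested. A score of at least 50 was reached by 15.5% ± 1.34 of coding peaks in Fs and 23.4% ± 3.86 in Fts. The rise of this share in Fts was thus not particular to start peaks.

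Transcripts with a start peak had longer 5′UTRs than annotated transcripts in general. The median 5′UTR was 350 nt for the 3050 transcripts with a start peak, 229 nt for the 8032 with a peak elsewhere only, and 223 nt for all 20661. Since the rule counts midpoints in the 5′UTR, a long 5′UTR offers more room for a member. An ATG within the 5′UTR was found in 69.9% of transcripts with a start peak and 64.2% of all transcripts. Single-exon transcripts made up 1.64% of the former and 10.02% of the latter. Between 20.2 and 26.4% of the genes with a start peak also had a coding peak in the Fs samples, against 33.1 to 38.7% in the Fts samples.

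To ask which start peaks returned from sample to sample, peaks of all samples that overlapped on the same strand were merged into regions. There were 3379 start regions on 3050 genes among 29713 merged regions, and 1758 of them held the start codon. A peak in 1 sample only was seen for 1494 of the start regions (44.2%), against 47.6% of all merged regions. Overlap of the start regions was larger within groups than between them, with Jaccard indices of 0.387 to 0.424 among Fs samples, 0.338 to 0.375 among Fts samples and 0.205 to 0.231 across groups. A region was a start region when it held at least 1 start peak, and its score in a sample was the highest of any peak of that sample in it. A start region with no peak in a sample may still carry m6A there, since the lists hold called peaks only and give no reads for any peak. By the study's sequencing summary, fewer reads were mapped in every Fts than in every Fs IP library, and in the input of Fts samples 1 and 2 than in any Fs input. Its part in these results was not tested.

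A peak in 3 of 3 Fts and 0 of 3 Fs samples was found in 171 start regions, 5.06%, where the share over all merged regions was 6.34% and over coding regions 7.59%. The opposite pattern, 3 of 3 Fs and 0 of 3 Fts, was found in 132 start regions (3.91%, against 3.71% of all merged regions). The count of regions with a peak in all 6 samples was 157 (4.65%, against 3.50% overall and 2.89% of coding regions). No test was made of these shares. In 149 of the 171 Fts regions, 120 of the 132 Fs regions and 130 of the 157 regions in all samples, each of those samples held a start peak itself. At a score of at least 20 the counts were 84, 72 and 67, and without 1 replicate they were 273 to 373, 246 to 288 and 208 to 246. Of the 157 regions, 18 scored higher in every Fts than in every Fs sample (11.5%, against 12.7% overall) and 38 scored lower in every Fts sample (24.2%, against 21.9%).

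Fts regions and Fs regions are set side by side here as a description, with no test. The start codon lay inside 115 of the 171 Fts regions (67.3%) and 60 of the 132 Fs regions (45.5%). Exon 1 held 55.0% of the Fts regions and 72.7% of the Fs regions. Median length was 210 bp in Fts regions and 170 bp in Fs regions, and the median of the mean score was 33.1 and 18.1. Of the 165 genes with Fts regions, 95 (57.6%) had a peak of some kind elsewhere in at least 1 Fs sample. Of the 132 genes with Fs regions, 75 (56.8%) had one in at least 1 Fts sample. Over all 20661 coding genes, 56.4% had a peak in at least 1 of the 6 samples. That is an unlike measure, and no matching share over other genes with peaks was computed.

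The Fts regions with the highest mean scores lay on HMGN1, AQN-1, PHF21A, SPMI and RPS6. HMGN1 (NCBI gene 100625838), which encodes a nucleosome-binding protein, had a region at chr13:202943181-202943324 on the minus strand with scores of 507, 3100 and 3100 in the Fts samples. It covered the start codon and lay in exon 2 of 7. The AQN-1 region at chr14:132259062-132259138, in exon 1 of 5, scored 3100, 3100 and 389, and the SPMI region at chr14:132321518-132321563, also in exon 1 of 5, scored 1647, 2689 and 1732. Spermadhesins are secreted proteins of the accessory glands that coat the boar sperm surface at ejaculation. PHF21A, a chromatin reader of unmethylated histone H3, had 2 such regions, 1 across the start codon in exon 5 of 20 with scores of 322, 3100 and 3001 and 1 upstream in exon 3 with 598, 1292 and 672.

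The RPS6 region, of 1488 bp at chr1:203444372-203445859 and starting in exon 1 of 6, scored 1219, 1961 and 2131 in Fts. In Fts samples 2 and 3 those scores belonged to peaks whose midpoints did not meet the rule, and the start peaks inside the region scored 49.1 and 138. RPS6 encodes a protein of the small ribosomal subunit that is phosphorylated downstream of mTOR. ARIH2, a ubiquitin ligase, had scores of 346, 3100 and 607 in a region over the start codon in exon 3 of 16. CYB5A, the electron carrier cytochrome b5, scored 489, 1371 and 1355 in exon 1 of 5, over the start codon and the GGACT site printed above. HNRNPA2B1, an RNA-binding protein that has been described as a reader of m6A, scored 682, 1472 and 1070 in exon 2 of 12, where the peak of Fts sample 1 was not a start peak. A separate weak start peak of this gene with a score of 7.94 was present in Fs sample 1. DNAJB6, a co-chaperone of the Hsp40 family, scored 377, 2867 and 124 in exon 3 of 10, but only 1 of its 9 coding transcripts has the start codon to which this placement refers.

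Among the Fs regions the highest mean score was 370, on a gene with only a locus number, against 2236 among the Fts regions. FAM168A, with a region in exon 1 of 10 at chr9:8071532-8071667, scored 516, 228 and 190. ABHD14A scored 152, 132 and 228 and S1PR3, a receptor for sphingosine-1-phosphate, 166, 202 and 83.6, both in exon 1. HDAC1, a histone deacetylase, scored 108, 187 and 115 in a region over the start codon at chr6:88749426-88749768, of which the peak of Fs sample 3 was a start peak. The regions of SSBP2, CCDC83 and AUNIP, printed above, scored 64.4 to 276, 91.9 to 192 and 64.8 to 121. In SSBP2 the region rested on 1 start peak, of 29.1 in Fs sample 2. AMMECR1L scored 39.7 to 144 and the kinase FYN 68.7 to 102, both in the 5′UTR without covering the start codon. Their distances to the first CDS base were -1668 nt in AMMECR1L and -46 nt in FYN.

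Regions present in all 6 samples included receptors, membrane proteins and enzymes. SSTR3, a somatostatin receptor of primary cilia, scored 922, 776 and 1087 in Fs and 563, 665 and 564 in Fts. SAE1, a subunit of the enzyme that activates SUMO, scored 1008, 1090 and 881 in Fs and 256, 395 and 343 in Fts. USP32, a ubiquitin-specific protease, scored 1091, 713 and 832 in Fs and 155, 180 and 360 in Fts. LYPLA2, a lysophospholipase and protein depalmitoylase, scored 799, 713 and 511 in Fs and 256, 195 and 186 in Fts. For these 4 genes each Fts score was below each Fs score, as was also the case for CNFN (744 to 1000 against 558 to 673) and JPH4, a junctophilin (750 to 776 against 335 to 593). Only 2 of the 10 coding transcripts of CNFN have the start codon used for its placement. RIBC1, a protein of the flagellar microtubules, went the other way in 2 of 3 samples, with 164, 200 and 274 in Fs and 1590, 1932 and 233 in Fts, the last not a start peak. FXYD7, PLEKHA4 and TMEM97 overlapped between the groups, with scores of 529 to 1214, 339 to 921 and 177 to 480. The score grows with read depth as well as with enrichment, and lists of the samples were not scaled to each other.

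**Figure D4:**
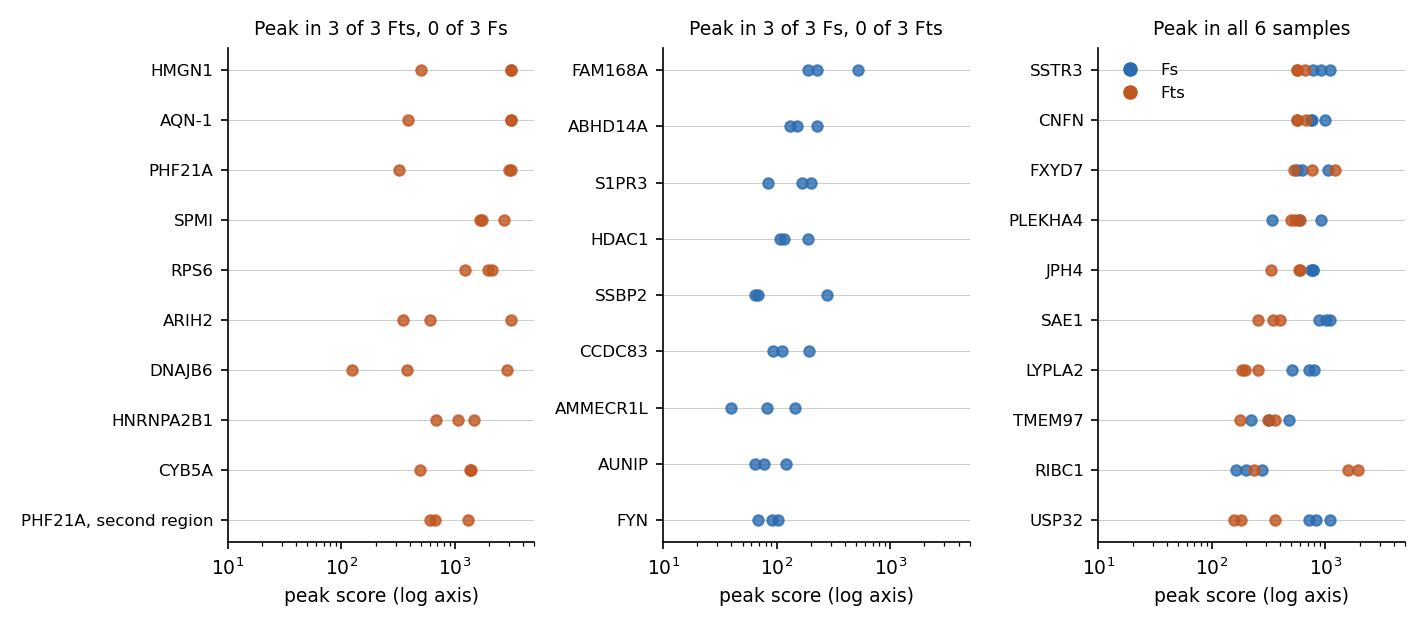
Peak scores per sample, on a log axis, for the 10 start regions with the highest mean score in 3 of 3 Fts and 0 of 3 Fs samples (left), 9 of the 10 such regions in 3 of 3 Fs and 0 of 3 Fts samples (middle), and the 10 with the highest lowest score among regions in all 6 samples (right). Points are samples, Fs in blue and Fts in orange. Fs regions in the middle panel stay at 516 or below, whereas Fts regions in the left panel reach 3100.

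Genes were next read by function, from lists of genes chosen by role. Over all coding genes, 14.8% of 20661 had a start peak in at least 1 sample, 0.736% had one in 3 of 3 Fts and 0 of 3 Fs samples, and 0.571% had the opposite. In a single sample a start peak was present on 5.42% of all coding genes in Fs and 5.60% in Fts, on average. Cytosolic ribosomal protein genes encode the proteins of the translating ribosome. Of 79 annotated genes, 2, 2 and 3 had a start peak in Fs, whereas 15, 22 and 15 had one in Fts, or 2.33 ± 0.58 against 17.3 ± 4.04 (SD, n = 3). In all, 28 of the 79 (35.4%) had a start peak in some sample, 7 of them had one in every Fts and no Fs sample, and 0 the reverse. At a score of at least 50 the numbers were 1, 1 and 1 in Fs and 6, 8 and 9 in Fts.

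Peaks anywhere on these genes showed the same order of the groups. A peak of any kind was found on 12, 10 and 8 ribosomal protein genes in Fs but on 63, 60 and 50 in Fts. Of those with a peak, 16.7 to 37.5% had a start peak in the Fs samples and 23.8 to 36.7% in Fts, and these shares overlapped. The larger number of start peaks on ribosomal protein genes in Fts thus went with a larger number of such genes with any peak. Of all 20661 coding genes, 5225, 6363 and 6269 had a peak of any kind in Fs and 5529, 6100 and 6521 in Fts. Transcript levels were not analysed here. Ribosomal protein genes have many processed copies in mammalian genomes, and the reads behind their peaks may be shared with such copies.

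Of the proteins of the large subunit, RPL35, whose 5′UTR is 24 nt long, scored 43.0, 272 and 166 in Fts in a region of exon 2 just past the start codon. RPL11 scored 96.4, 16.3 and 349 over its start codon, and RPL34 scored 7.90, 135 and 153 over its own. The peaks of RPL36A (6.15 to 35.2), RPL38 (4.60 to 32.9) and RPL15 (3.72 to 36.3, with a start peak in Fts sample 1 alone) were weaker. None of these had an overlapping peak in Fs. RPS7 was an exception, with start peaks of 3100 in Fs samples 1 and 3 and of 2124 in Fts sample 2, and RPL3 had 3100 in Fs sample 2 and Fts sample 1. The RPS7 and RPL3 values were picked out after they were seen.

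Translation initiation factors showed the same direction in counts. Of 50 annotated genes, 2, 2 and 2 had a start peak in Fs and 5, 12 and 10 in Fts, while genes with a peak of any kind numbered 15, 20 and 15 in Fs and 16, 33 and 22 in Fts. EIF4A3, a helicase of the exon junction complex, had a region over its start codon at chr12:2285579-2285863 that scored 76.6, 85.8 and 108 in Fts, by start peaks in samples 2 and 3, and was without a peak in Fs. EIF5A, which carries the hypusine residue and aids elongation, scored 116, 89.5 and 289, and EIF4G3, a scaffold of the cap-binding complex, scored 29.4, 10.7 and 62.9, both in Fts only. Of the 5 coding transcripts of EIF5A, 1 has the start codon to which this placement refers. The first CDS bases of 4 lie inside the region. PABPC1, the poly(A)-binding protein whose 5′UTR is known to bind its own product, scored 199, 632 and 490 in Fts and 5.88 in Fs sample 1. EIF5B, which joins the ribosomal subunits, scored 39.1, 55.3 and 40.2 in Fts and 23.7 in Fs sample 3. Counts of genes with a start peak were higher in every Fts than in every Fs sample for both lists. Counts of initiation factor genes with a peak of any kind overlapped between the groups.

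In the m6A machinery, 5, 3 and 4 of 25 annotated genes had a start peak in Fs and 4, 3 and 5 in Fts. METTL16, a methyltransferase with its own RNA targets, had a region in all 6 samples that scored 14.7, 45.9 and 47.8 in Fs and 3.57, 27.4 and 76.8 in Fts, and the groups overlapped. YTHDC1, the nuclear reader, scored 94.3, 178 and 165 in Fts and 4.55 and 6.94 in Fs samples 2 and 3. CBLL1, a subunit of the writer complex, was covered in all 3 Fs samples (23.4 to 40.0) and in Fts samples 1 and 3 (72.9 and 28.0). IGF2BP3, a reader that stabilises its targets, scored 117, 79.5 and 30.8 in Fs and had 1 peak in Fts, of 50.5. The number of genes did not separate the groups, though individual regions leaned in either direction.

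Heat shock proteins and chaperones, a class whose 5′UTRs are known to gain m6A under heat stress, had start peaks on 5, 3 and 4 of 58 genes in Fs and 6, 5 and 5 in Fts. A peak of any kind was found on 14, 13 and 16 of them in Fs and on 22, 23 and 29 in Fts. DNAJB11, a chaperone of the endoplasmic reticulum, had a region over its start codon in all 6 samples, with scores of 343, 202 and 288 in Fs and 22.7, 3.35 and 59.7 in Fts. All 3 of its Fts scores lay below its Fs scores. DNAJB1, an Hsp40 protein induced by heat, scored 7.25 in Fs sample 1 and 17.3, 27.2 and 53.1 in Fts. These 2 genes and DNAJB6 were the members of the list with a region in all samples of a group.

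Chromatin enzymes had start peaks on 8, 9 and 10 of 82 genes in Fs and 4, 10 and 10 in Fts. SMARCC1 and SMARCC2 are core subunits of the SWI/SNF remodelling complexes. SMARCC1 scored 23.2, 26.6 and 49.1 in Fs with no peak in Fts, and SMARCC2 scored 224, 255 and 116 in Fs against 12.7 and 19.5 in Fts samples 2 and 3. The acetyltransferase KAT5 had 5.03, 24.9 and 53.1 in Fs only, whereas KAT8 scored 6.50 and 13.7 in Fs samples 1 and 2 and 46.9, 46.6 and 16.1 in Fts. CHD8, a helicase, was present in all 6 samples, with 161, 145 and 112 in Fs and 95.7, 125 and 57.2 in Fts. KMT5B, which methylates histone H4, scored 6.72, 16.2 and 19.1 in Fs and 42.2 and 83.3 in Fts samples 1 and 2.

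In the remaining lists the counts of genes with a start peak overlapped between the groups. Start peaks were found on 6, 4 and 6 of 47 immediate early and stress response genes in Fs and 4, 5 and 5 in Fts. For ubiquitin proteases and E2 enzymes they were found on 6, 3 and 5 of 71 genes and 4, 3 and 9. UBE2M, an E2 enzyme for NEDD8, scored 404, 155 and 471 in Fs and 377 in Fts sample 3. The transcription factor KLF10 scored 7.36 to 11.2 in Fs and 4.71 in Fts sample 3, and ZFP36, which destabilises mRNAs with AU-rich elements, had a weak region in all 6 samples (3.22 to 24.7). Glycolysis and citrate cycle genes had 4, 2 and 2 of 50 in Fs and 2, 1 and 4 in Fts, with DLD at 3.69 to 7.82 in Fs and 4.00 in 1 Fts sample, and apoptosis genes had 1, 3 and 2 of 43 in Fs and 2, 1 and 3 in Fts.

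Genes of sperm structure had start peaks on 2, 3 and 3 of 59 genes in Fs and 1, 5 and 4 in Fts. AKAP3, a scaffold of the fibrous sheath of the sperm tail, scored 5.68, 15.7 and 6.47 in Fs and 18.4 in Fts sample 3. Of 12 defining sperm markers, 1 per Fs sample and 1, 3 and 2 in Fts had a peak anywhere on the gene, and PRM1, TNP1, ODF1, AKAP4, SMCP, TSSK6 and GAPDHS had none. Leukocyte markers had no start peak, and 0, 1 and 2 of 7 had a peak elsewhere in Fs against 1, 2 and 2 in Fts. Epithelial markers likewise had no start peak, and 1, 1 and 2 of 5 had a peak elsewhere in Fs against 3, 3 and 4 in Fts. KRT8, KRT18 and KRT19 had one in every Fts sample, KRT18 also in Fs sample 3 and KRT19 in Fs sample 1. CDH1 had one in Fs samples 2 and 3 and in Fts sample 3 alone, and EPCAM had none. Epithelial markers with a peak were thus more in each Fts sample, as were the ribosomal protein genes above. This was not particular to these lists. Chromatin enzymes with a peak of any kind numbered 44, 54 and 53 in Fs and 59, 66 and 67 in Fts. For ubiquitin proteases and E2 enzymes they numbered 19, 21 and 20 against 25, 32 and 39. In the apoptosis, stress response and sperm structure lists these counts overlapped between the groups. The part of epithelial markers in these results was not tested.

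**Figure D5:**
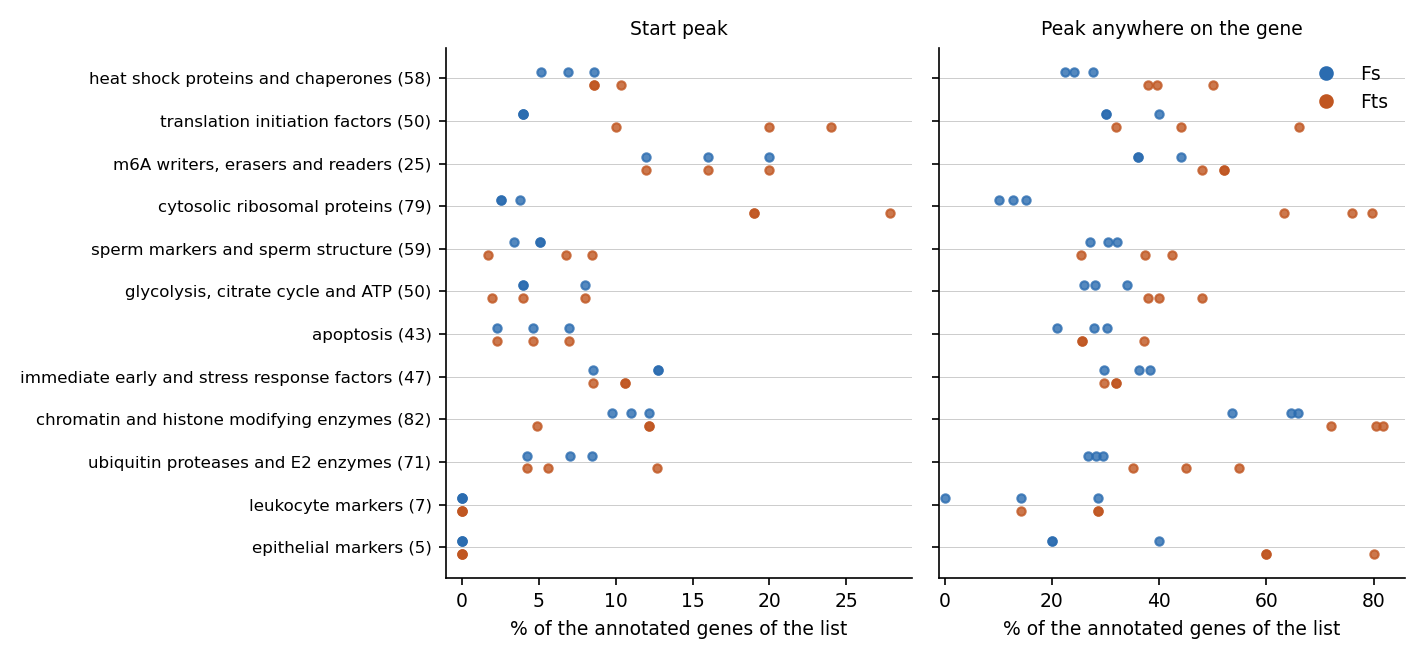
Percentage of the annotated genes of each list (number in brackets) with a start peak (left) and with a peak anywhere on the gene (right). Points are samples, Fs in blue and Fts in orange. Ribosomal protein genes lie at 8 to 12 of 79 genes in Fs and 50 to 63 of 79 in Fts on the right, and both panels separate the groups for this list.

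The limit of 100 nt into the CDS fell within a continuous run of peaks. Between 91 and 100 nt there were 29 to 55 peaks per sample, and between 101 and 110 nt there were 41 to 56. RBM5, an RNA-binding splicing factor, lay just inside, at 100 nt in all 6 samples, with scores of 25.3, 15.0 and 32.7 in Fs and 61.4, 76.1 and 76.8 in Fts. TDRD7, a tudor protein of germ cells, lay at the same distance with scores of 16.4 to 43.0 in 5 samples. ZNF410 lay just outside, at 101 nt, with scores of 33.0 to 107 in 4 samples.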

How the data were processed

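MeRIP-seq was performed on 3 Fs and 3 Fts samples, each with an IP and an input library. The authors trimmed reads with cutadapt (v1.9.3), aligned them to susScr11 with HISAT2 and called peaks with MACS, IP against input in every sample, and their own program kept peaks on mRNAs. The annotation they used was not given in the sources used here. The value the authors deposited for each peak is the MACS score, 10 times -log10 p, which was not normalized between samples. The lists hold no read numbers, so the depth behind a single peak is unknown and no counting interval can be given. The read totals that the study lists for each library are cited in the text but entered no calculation. A further deposited list, the authors' own differential sites between Fs and Fts, was not used.

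Peaks were placed on RefSeq Sscrofa11.1 (Annotation Release 106) transcripts by an overlap of at least 1 bp, with the strand of the deposited list, whose origin is not stated. Sequence windows were 100 nt on the spliced transcript. Fs and Fts were compared by two-sided exact sign-flip tests over the 3 pairs of equal number, since the study used a paired design, and start with coding peaks by the same test over 6 samples. P-values were adjusted by Benjamini-Hochberg over 10 and 7 results. The smallest p is 0.25 for 3 pairs and 0.03125 for 6 samples. The test over 6 samples takes them as independent, which the shared boars do not ensure. Lists and regions were counted without a test. The genes named were the 10 regions with the highest mean score (or, for all 6 samples, the highest lowest score) of each pattern, list genes with a region in all 3 samples of a group, and members beside the 100-nt limit, leaving out genes with only a locus number. A few items that this rule names are not reported here. The members and lists were chosen with earlier results of these data known. Alternatives were a minimum score of 20 or 50, a window of 50 or 200 nt, another transcript, another overlap, whole peaks, joined peaks, unpaired tests and each replicate left out. Python 3.11.15, numpy 2.4.6, scipy 1.17.1 and pysam 0.24.0 were used, and the code was tested on simulated peaks.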

Additional observations from a re-analysis of the deposited data

How the results depend on the processing

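Of 197 alternatives over 22 results, 158 kept the direction and the side of the threshold or stayed within 1.5 times a count. For the 10 Fs and Fts comparisons the side of the threshold was fixed, since tests of so few samples cannot reach 0.05. Only their direction could change. The log2 ratio of start peaks to the length share changed sign at a score of at least 20 (0.038) or 50 (0.228), with a 200-nt window (0.126) and with the transcript of most overlap (0.111), and reached p = 0.03125 (exact, unadjusted) with a 50-nt window (-0.349). The Fts minus Fs difference in GGACT share was -0.00784 with 200 nt and -0.383 with the other transcript. For genes with a start peak it was -3.67 with the other transcript and between -10.5 and 79 without 1 replicate, negative without replicate 3. At a score of at least 20 the median score of start peaks exceeded that of coding peaks by 8.35 (exact sign-flip p = 0.03125, unadjusted). Recurrence is the share of peaks overlapped in both other samples of the group. Without a score limit it exceeded that of coding peaks by 2.36 points (exact sign-flip p = 0.1875, unadjusted). The recurrence difference was above 0 in 4 of 6 samples, with means of 5.10 in Fs and -0.39 in Fts. At a score of at least 50 it was 6.12 points (exact sign-flip p = 0.03125, unadjusted).

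Some Fts minus Fs differences kept their direction but moved in size. At scores of at least 20 and 50 they were -4.75 and -7.07 points for the share of start peaks, -2.55 and -3.02 for GC and 5.66 and 4.82 for RRACH. With a 50-nt window the RRACH difference was 1.25, that in the share before the start codon -2.00 and that in the number of start peaks 16.7, which was 162 with 200 nt.

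Start regions in 3 of 3 Fts and 0 of 3 Fs samples numbered 84 at a score of 20, 60 at 50, 269 with 200 nt and 273 to 373 without 1 replicate. The reverse pattern numbered 72, 49 and, without 1 replicate, 246 to 288, and regions in all samples 67, 36 and 208 to 246. With fewer samples a pattern is easier to meet, and a higher score leaves fewer peaks. Without 1 replicate the start minus coding differences lay between 24.8 and 27 bp for length, 7.45 and 7.69 points for GC, -9.22 and -8.85 points for RRACH and 1.87 and 2.30 points for GGACT, where 4 samples allow no p under 0.125. The list counts were rerun under alternatives chosen after seeing the data. The difference of 15 ribosomal protein genes became 6.67 at a score of at least 50 and 12.5 to 16.5 without 1 replicate, and that of 7 initiation factor genes became 4.00 and 5.50 to 9.

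With no replicate block, an exact permutation of 3 against 3 gave p = 0.1, its smallest value, for the 6 Fs and Fts differences without overlap, and it changed no call. Samples of equal number did not deviate together over start regions, with correlations of -0.00382, 0.00257 and 0.0119, so the numbers were not shown to pair the samples. Without the reads behind each peak, and with fewer mapped reads listed for the Fts IP libraries, a missing peak shows little.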
